A study of Danio rerio with 10 samples.

Results

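The Meis and Pbx genes encode TALE homeodomain proteins, named for a loop extension in the homeodomain, that bind DNA together with Hox proteins. The 8 listed zebrafish genes (*meis1b*, *meis2a*, *meis2b*, *meis3*, *pbx1a*, *pbx2*, *pbx3b* and *pbx4*) were found through the RefSeq accessions of the count table, where they make up 10 of its 14720 records. Of these genes 6 had at least 1 read and 5 were abundant enough to be tested. The 4 records of *pbx1a* and *pbx3b* held no read in any library.

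Pbx proteins bind DNA beside Hox proteins and sharpen which sites a Hox protein selects. Meis proteins, and the related Pknox (Prep) proteins, bind Pbx, help to keep it in the nucleus and often sit on the same enhancers beside Hox and Pbx. In zebrafish, *pbx4* (*lazarus*) is the main early Pbx gene, needed for hindbrain segment identity, and Pbx proteins are also known to act with Myod on fast muscle genes. Meis genes are known to respond to retinoic acid.

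RNA was measured in fluorescein-positive cells sorted from wild-type AB zebrafish embryos at 9 hpf (hours post-fertilization), in 5 libraries per group. In the spt_cMO group, embryos had received caged fluorescein-dextran (cFD) and a caged morpholino against *spadetail*, an older name of the T-box gene *tbx16*. In the control group they had received cFD only, with no morpholino, so loss of *spadetail* and other effects of a morpholino cannot be told apart. Both groups were uncaged at 6 hpf with 360 nm light through a 100 µm diaphragm aimed at the prospective ventral somites, so only the lit cells of each embryo released the agent. The number of embryos per library is not given in the sources used here. CEL-seq reads a tag at the 3′ end of a transcript, and the values are CPM, counts scaled to library size by TMM, the trimmed mean of M-values.

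Totals lay between 2036973 and 9374914 counts in spt_cMO libraries and between 3365785 and 7968446 in control libraries. A count of 3 corresponded to between 0.32 and 1.47 CPM, which covers counting error only. On the first principal component of all tested records, which held 19.0% of the variance, spt_cMO replicate 2 stood at 30.8, against -12.8 to 6.4 for the other 9. Transcripts of *tbx16*, the morpholino's target, stood at 546, 463, 577, 394 and 652 CPM in spt_cMO replicates 1 to 5 and at 421, 321, 364, 391 and 433 CPM in control replicates 1 to 5. This RNA was not lower in spt_cMO (log2 fold change 0.45, adjusted p = 0.0897, edgeR's quasi-likelihood test). It passed as higher once replicate number was in the model (adjusted p = 0.0172, same test). How the morpholino acts on this transcript was not tested. Markers of the labelled cell type were abundant: all 22 paraxial mesoderm markers had reads, and their summed level was 3407 to 5093 CPM in spt_cMO and 7245 to 9467 CPM in control. Most of that gap was *msgn1*, a factor of the presomitic mesoderm, which averaged 2029 CPM in spt_cMO and 5838 CPM in control; without it the sum was 1905 to 2555 CPM in spt_cMO and 2256 to 2817 CPM in control. In sorted bulk cells, fewer cells of a type and less RNA per cell cannot be told apart.

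The gene *meis1b* fell in spt_cMO, and it was the 1 gene of the 5 tested that passed the test. Its level was 20.6, 25.4, 21.4, 16.4 and 15.3 CPM in spt_cMO replicates 1 to 5. In control replicates 1 to 5 it was 40.6, 44.3, 32.4, 21.7 and 31.6 CPM. Of the spt_cMO libraries, 4 lay below every control library, and replicate 2, the highest of them, lay between control replicates 4 and 5, so the groups overlapped in 1 library. The means were 19.8 CPM ± 4.08 in spt_cMO and 34.1 CPM ± 8.79 in control (SD, n = 5 each). The level in spt_cMO was 57.6% of that in control, a log2 fold change of -0.80 (SE 0.18, 95% interval -1.18 to -0.41), and it passed edgeR's quasi-likelihood test (adjusted p = 0.0315 over 6570 tested records). Of those records 1.78% passed in either direction and 0.974% passed as lower in spt_cMO. No tested member had groups that were fully separate, which 3.06% of all tested records had.

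The fall of *meis1b* was seen in each of the 5 pairs of libraries with the same replicate number. Since 4 spt_cMO libraries lay below every control library, those 4 would be lower in any pairing, so this count adds little. The differences in log2 CPM were -0.96, -0.79, -0.59, -0.39 and -1.03 for numbers 1 to 5. When the replicate number was added to the model as a block, *meis1b* gave -0.77 on the log2 scale and an adjusted p of 0.00151 (edgeR's quasi-likelihood test). With that block 2.75% of all tested records passed, 1.42% as lower in spt_cMO. Without the block the call was lost when any library other than control replicate 4 or spt_cMO replicate 2 was left out, with an adjusted p of 0.0531 to 0.105 and log2 fold changes of -0.67 to -0.82. With the block it held when both libraries of any 1 number were left out, with an adjusted p of 0.0020 to 0.0191, a setting chosen after the data were seen. The authors' deposited table compares the same 2 groups by a likelihood ratio score over 6923 records, so it is not independent support. In it *meis1b* had a log2 fold change of -0.77 and an adjusted p of 3.02e-05 by that score, and 1.75% of the records passed as lower.

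**Figure D1:**
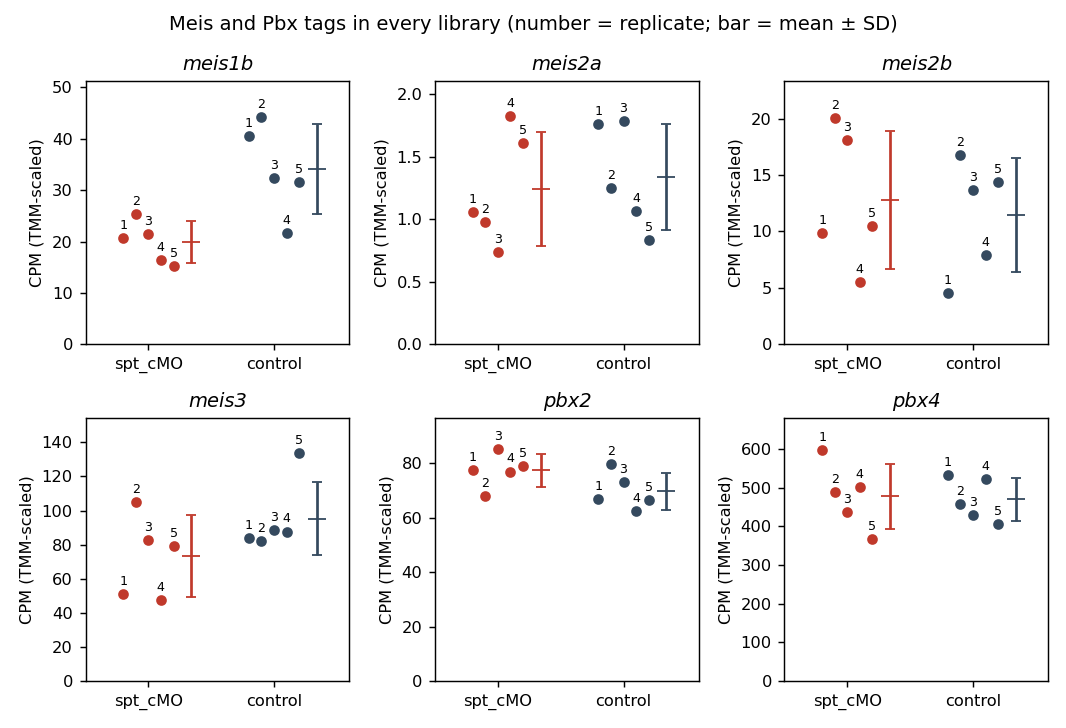
TMM-scaled CPM (vertical axes, each from 0) of the 6 Meis and Pbx genes with reads, in every library of spt_cMO (red, left) and control (dark, right); digits are replicate numbers and bars are mean ± SD over 5 libraries. For *meis1b*, 4 of the 5 spt_cMO libraries lie below all control libraries, while in the other 5 genes the groups overlap more widely.

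The gene *meis3*, whose product acts with Hoxb1b and Pbx4 in the zebrafish hindbrain, was the most abundant Meis gene. It stood at 51.0, 105, 82.6, 47.2 and 79.2 CPM in spt_cMO replicates 1 to 5, against 83.9, 82.2, 88.8, 87.7 and 134 CPM in control replicates 1 to 5. Among the spt_cMO libraries 3 lay below every control library and the other 2, replicates 2 and 3, lay within the control range. The means were 73.1 CPM ± 24.1 in spt_cMO and 95.2 CPM ± 21.6 in control (SD, n = 5 each). The log2 fold change was -0.41 (SE 0.22, 95% interval -0.88 to 0.06) and did not pass (adjusted p = 0.631, edgeR's quasi-likelihood test).

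The 5 pairs of *meis3* did not all go one way. The differences in log2 CPM were -0.71, 0.35, -0.10, -0.89 and -0.75 for numbers 1 to 5, lower in 4 of 5. The pair that went up holds spt_cMO replicate 2, the library that stood apart on the first principal component. That library also had the lowest total, 2036973 counts, and the part of either trait in this pair was not tested. With the replicate block and both libraries of number 2 left out, a setting chosen after the data were seen, *meis3* had a log2 fold change of -0.62 and passed (adjusted p = 0.00832). With the block and all 10 libraries it was -0.42 (adjusted p = 0.341), and without spt_cMO replicate 2 and no block it was -0.58 (adjusted p = 0.241). Control replicate 5 held the highest *meis3* level of all libraries. Without that library the log2 fold change was -0.26 (adjusted p = 0.853, edgeR's quasi-likelihood test).

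The paralogs *meis2b* and *meis2a* were the scarcest members with reads, and *meis2b*, the one of the pair that was tested, gave no detectable difference. The level of *meis2b* was 9.87, 20.1, 18.1, 5.48 and 10.5 CPM in spt_cMO replicates 1 to 5 and 4.54, 16.8, 13.7, 7.88 and 14.4 CPM in control replicates 1 to 5. It varied most within groups of the 5 tested members, with a coefficient of variation of 47.6% in spt_cMO and 44.2% in control. Its log2 fold change was 0.05 with a 95% interval of -0.77 to 0.88 (adjusted p = 0.992, edgeR's quasi-likelihood test), an interval whose lower end is close to the -0.80 of *meis1b*. The direction turned when single libraries were left out, with log2 fold changes of -0.14 without spt_cMO replicate 2, -0.13 without control replicate 1, -0.12 without spt_cMO replicate 3 and -0.05 without control replicate 4. The control library with the fewest *meis2b* reads held 18, whose exact Poisson 95% interval is 2.69 to 7.17 CPM.

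The gene *meis2a* did not pass the filter on low counts and was not tested. It was counted at 0.738 to 1.83 CPM in spt_cMO and 0.831 to 1.78 CPM in control, and held 3 reads or fewer in 2 libraries. Over all 10 libraries it had 59 reads, against 1359 for *meis1b*. The sister gene of *meis1b*, *meis1a*, reached at most 0.277 CPM in any library.

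The Pbx genes with reads showed no detectable difference between the groups. The gene *pbx2* stood at 77.7, 68.0, 85.2, 77.0 and 78.8 CPM in spt_cMO replicates 1 to 5, against 67.0, 79.7, 73.1, 62.4 and 66.6 CPM in control replicates 1 to 5. It was the steadiest member, with a coefficient of variation of 7.96% in spt_cMO and 9.70% in control, and was higher in spt_cMO in 4 of 5 pairs. The log2 fold change was 0.15 with a 95% interval of -0.07 to 0.37 (adjusted p = 0.770, edgeR's quasi-likelihood test).

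The most abundant member, *pbx4*, stood at 597, 488, 438, 501 and 368 CPM in spt_cMO replicates 1 to 5 and at 534, 458, 428, 523 and 406 CPM in control replicates 1 to 5. Both groups were ordered alike by replicate number, with number 1 highest and number 5 lowest. The means were 478 CPM ± 84.2 in spt_cMO and 470 CPM ± 56.6 in control (SD, n = 5 each). The log2 fold change was 0.03 with a 95% interval of -0.22 to 0.28 (adjusted p = 0.981, edgeR's quasi-likelihood test), which corresponds to 0.856-fold to 1.22-fold. Its sign turned without spt_cMO replicate 1 (-0.06), control replicate 5 (-0.02) or control replicate 3 (-0.002).

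**Figure D2:**
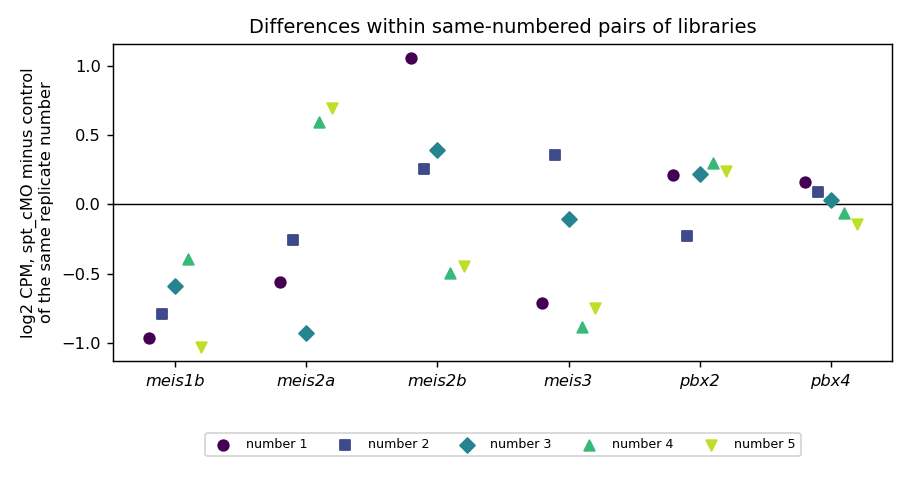
Difference in log2 CPM (prior count 2) between the spt_cMO and the control library of the same replicate number (vertical axis) for the 6 genes with reads; symbols mark numbers 1 to 5. All 5 pairs of *meis1b* lie below 0, from -0.39 to -1.03, 4 of 5 pairs of *meis3* do, and *pbx4* stays within -0.14 to 0.16.

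No read was assigned to *pbx1a* or *pbx3b*, and for these genes a level of 0 may not mean an absent transcript. Both are represented by 2 records each in the table. Among symbols with 2 or more records, 296 of 481 records (61.5%) were at 0 in every library, while among symbols with 1 record 1225 of 13505 (9.07%) were. How the authors' counting treated reads shared by 2 records of a gene is not given in the sources used here, and its part in these zeros was not tested. The levels of *pbx1a* and *pbx3b* are therefore taken as unknown. The related *pbx1b*, with 1 record, was counted at 3.90 CPM ± 1.93 in spt_cMO and 5.67 CPM ± 1.76 in control (SD, n = 5 each).

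Since CEL-seq takes a tag per transcript end, CPM is not scaled by transcript length, and tag levels of different genes can be set side by side as far as each 3′ end was annotated. In spt_cMO the order of mean tag levels was *pbx4* (478 CPM), *pbx2* (77.4 CPM), *meis3* (73.1 CPM), *meis1b* (19.8 CPM), *meis2b* (12.8 CPM) and *meis2a* (1.24 CPM). In control it was *pbx4* (470 CPM), *meis3* (95.2 CPM), *pbx2* (69.8 CPM), *meis1b* (34.1 CPM), *meis2b* (11.4 CPM) and *meis2a* (1.34 CPM). In control no neighbours in this order overlapped in their ranges. In spt_cMO *pbx2* exceeded *meis3* in 3 of 5 libraries and their ranges overlapped, as did those of *meis1b* and *meis2b*, although *meis1b* was the higher in 5 of 5 libraries.

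Summed over the 4 genes with reads, Meis tags were 82.6, 152, 123, 71.0 and 107 CPM in spt_cMO replicates 1 to 5, against 131, 145, 137, 118 and 180 CPM in control replicates 1 to 5. The means were 107 CPM ± 32.2 in spt_cMO and 142 CPM ± 23.4 in control (SD, n = 5 each), and the sum was lower in 4 of 5 pairs, number 2 being the exception. Pbx tags, summed over *pbx2* and *pbx4*, averaged 556 CPM ± 82.9 in spt_cMO and 540 CPM ± 54.2 in control (SD, n = 5 each), and *pbx4* made up 85.8% ± 2.65 of them in spt_cMO and 86.9% ± 1.99 in control. The ratio of Meis to Pbx tags was 0.198 ± 0.0706 in spt_cMO and 0.269 ± 0.0704 in control, with overlapping ranges of 0.122 to 0.273 in spt_cMO and 0.202 to 0.382 in control. These sums are descriptions of chosen genes and were not tested.

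Whether the cofactors changed by different amounts was tested on the ratio of each pair of tested members within a library, a value that does not depend on library scaling. Of 10 pairs compared, none passed after Benjamini-Hochberg adjustment over the pairs. The lowest p was that of *meis1b* to *pbx2*, whose log2 ratio averaged -1.96 ± 0.36 in spt_cMO and -1.06 ± 0.30 in control (SD, n = 5 each), a difference of -0.90 (SE 0.21; 2-sided exact permutation p = 0.0159, adjusted p = 0.159). The ratio of *meis1b* to *pbx4* differed by -0.77 (SE 0.24; exact permutation p = 0.0317, adjusted p = 0.159). Both ratios were lower in spt_cMO in 5 of 5 pairs, with p = 0.0625 by exact sign flips over the pairs, the smallest that 5 pairs can give. Between Meis genes, *meis1b* to *meis3* differed by -0.33 (SE 0.30; exact permutation p = 0.302, adjusted p = 0.431) and *meis1b* to *meis2b* by -0.91 (SE 0.43; exact permutation p = 0.0635, adjusted p = 0.212). The smallest p these permutations can give is 0.00794, so 1 ratio alone could not pass adjustment over the 10 pairs. A change particular to *meis1b* among the cofactors was neither shown nor excluded by this test.

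**Figure D3:**
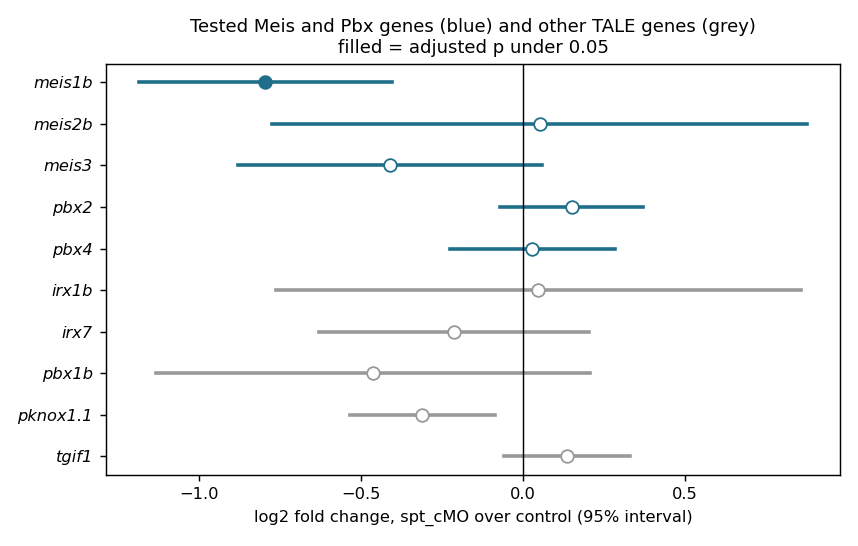
Log2 fold change of spt_cMO over control (horizontal axis) with its 95% interval from edgeR's quasi-likelihood fit, for the 5 tested Meis and Pbx genes (blue) and 5 other tested TALE genes (grey). Only *meis1b* is filled, meaning an adjusted p under 0.05; the interval of *pknox1.1* also lies below 0 but its adjusted p was 0.231.

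None of the other TALE genes that were tested passed. Besides TALE genes, the list held genes of Pbx-binding proteins, such as *pbxip1b*. Of its 23 genes 18 matched a record, 15 had reads and 5, all of them TALE genes, were tested. The most abundant was *tgif1*, which encodes a TALE repressor known to dampen Nodal and retinoic acid signalling, at 760 CPM ± 62.9 in spt_cMO and 691 CPM ± 57.9 in control (SD, n = 5 each; log2 fold change 0.14, adjusted p = 0.758). The Pbx-binding *pknox1.1* stood at 92.4 CPM ± 10.4 in spt_cMO and 114 CPM ± 9.99 in control (SD, n = 5 each). Its log2 fold change was -0.31 (SE 0.11, 95% interval -0.54 to -0.09), with an adjusted p of 0.231 and of 0.146 with the replicate block (edgeR's quasi-likelihood test). The Iroquois gene *irx7*, which acts in the anterior hindbrain, stood at 10.9 CPM ± 2.05 in spt_cMO and 12.5 CPM ± 3.28 in control. The 5 tested genes had a median log2 fold change of -0.21, against 0.001 over all tested records.

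The proteins of the hox genes are the partners of these cofactors, and the hox genes that passed were higher in spt_cMO, where *meis1b* was lower. Of 47 hox genes with a record, 46 had reads and 26 were tested, of which 4 rose (*hoxc10a*, *hoxb10a*, *hoxd10a* and *hoxc3a*), none fell and 22 did not pass, while 0.807% of all tested records passed as higher. A positive log2 fold change was found in 22 of 26, with a median of 0.38, against 0.001 over all tested records. With the replicate block 8 rose, where 1.34% of all tested records passed as higher. The 4 additions were *hoxa13b*, *hoxd9a*, *hoxd3a* and *hoxb5b*. The call of *hoxc3a* was lost without any of 5 libraries, the highest adjusted p being 0.0870 (control replicate 4 left out). That of *hoxd10a* was lost without any of 7, the highest being 0.132 (control replicate 5 left out). The partner best known to act with Meis3 and Pbx4, *hoxb1b*, stood at 153 CPM ± 23.96 in spt_cMO and 117 CPM ± 12.7 in control (SD, n = 5 each; log2 fold change 0.37, adjusted p = 0.172, edgeR's quasi-likelihood test).

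Of 26 reported targets and partners of Hox, Pbx and Meis proteins in hindbrain and muscle, 24 had reads and 10 were tested, of which 2 rose and 1 fell. Over all tested records 0.807% passed as higher and 0.974% as lower, and the list's median log2 fold change was 0.24, against 0.001 over all tested records. Like the other lists here, this one was chosen with earlier results of these data known, so its counts do not measure enrichment. The actin gene *actc1a*, a marker of early muscle, fell to 134 CPM ± 28.2 in spt_cMO, against 273 CPM ± 31.98 in control (log2 fold change -1.04, SE 0.14, adjusted p = 0.000190). The growth factor gene *fgf8a* rose to 289 CPM ± 41.2 in spt_cMO, against 183 CPM ± 16.0 in control (log2 fold change 0.66, SE 0.11, adjusted p = 0.00158). The zinc finger gene *znf703* rose to 194 CPM ± 16.6 in spt_cMO, against 146 CPM ± 17.3 in control (log2 fold change 0.42, SE 0.10, adjusted p = 0.0425), a call lost without any of 8 libraries, with an adjusted p up to 0.131 without spt_cMO replicate 1. The other 7 did not pass, among them *hoxb1b*, which is also counted among the hox genes above. Also among the 7 were the muscle factors *myod1*, at 6.71 CPM ± 3.74 in spt_cMO and 5.44 CPM ± 4.07 in control, and *myf5*, at 9.32 CPM ± 4.24 in spt_cMO and 7.74 CPM ± 3.64 in control. The hindbrain genes *egr2b*, *mafba* and *hoxb1a* were scarce, at 0.458 CPM, 1.51 CPM and 0.351 CPM on average in spt_cMO and at 0.489 CPM, 1.43 CPM and 0.279 CPM in control, where 3 counts make up 0.32 to 1.47 CPM.

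Retinoic acid pathway genes were read because Meis genes are known to respond to this signal. Of 23 listed genes 21 had reads and 11 were tested, of which *cyp26a1*, encoding an enzyme that degrades retinoic acid, rose (log2 fold change 0.78, SE 0.10, adjusted p = 0.000151). The retinoic acid synthesis gene *aldh1a2* stood at 57.4 CPM ± 20.4 in spt_cMO and 105 CPM ± 28.0 in control (SD, n = 5 each; log2 fold change -0.90, SE 0.24). It did not pass without the block (adjusted p = 0.116) and fell with it (adjusted p = 0.0164, edgeR's quasi-likelihood test). The receptor genes *raraa*, *rarab*, *rarga* and *rxrba* did not pass, with log2 fold changes of 0.23, 0.31, -0.11 and -0.02. The scarce receptor gene *rxrga* stood at 2.46 CPM ± 0.84 in spt_cMO and 4.45 CPM ± 0.53 in control (SD, n = 5 each). Its log2 fold change was -0.97 (SE 0.28), and it did not pass either (adjusted p = 0.111, edgeR's quasi-likelihood test). The 1 call in 11 stands beside 0.807% of all tested records passing as higher, and the list's median log2 fold change was -0.02. Retinoic acid itself was not measured, and its part in the fall of *meis1b* was not tested.

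Of 11 caudal regulators 9 had reads and 5 were tested, with a median log2 fold change of -0.10; 1 passed, as higher, where 0.807% of all tested records did. The brachyury gene *tbxta* rose to 439 CPM ± 44.2 in spt_cMO, against 338 CPM ± 21.3 in control (log2 fold change 0.38, SE 0.09, adjusted p = 0.0440), a call lost without any of 9 libraries, with an adjusted p up to 0.148 without spt_cMO replicate 1. The caudal homeobox genes *cdx4* and *cdx1a*, regulators of posterior hox genes, did not pass, with log2 fold changes of -0.26 and -0.10.

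**Figure D4:**
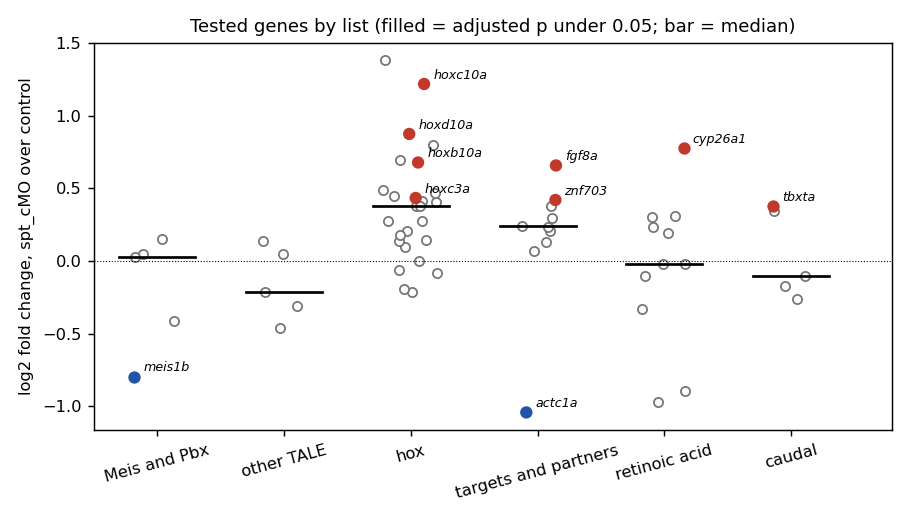
Log2 fold change of spt_cMO over control (vertical axis) for the tested genes of the Meis and Pbx set and of 5 other lists, with the median of each as a bar; filled points passed an adjusted p of 0.05, red when higher and blue when lower in spt_cMO. *meis1b* lies at -0.80 while 22 of 26 hox genes lie above 0. The median over all tested records was 0.001.

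The genes whose levels followed *meis1b* most closely were sought among 3897 other tested records with a symbol and a mean log2 CPM of at least 4, by the Pearson correlation of log2 CPM over the 10 libraries. These values describe the ranking, carry no test and include the difference between the groups. The closest was *arl4cb*, a gene of the Arl4 family of small GTPases, with a correlation of 0.93, and of 0.82 once group means were removed. It fell to 39.7 CPM ± 9.62 in spt_cMO, against 64.5 CPM ± 8.81 in control (log2 fold change -0.71, SE 0.15, adjusted p = 0.0133, edgeR's quasi-likelihood test). Next came *kin* (0.90), *cdx4* (0.86), *lyrm4a* (0.85) and the actin nucleation gene *arpc5a* (0.84), none of which passed the test between the groups. The level of *cdx4* averaged 3367 CPM ± 225 in spt_cMO and 4036 CPM ± 282 in control. With group means removed, the correlations were 0.791 for *kin*, 0.607 for *cdx4*, 0.785 for *lyrm4a* and 0.852 for *arpc5a*. That of *arpc5a* was then higher than that of *arl4cb*.

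Meis genes are also transcribed in cells other than paraxial mesoderm, so marker lists were read beside *meis1b*. All 21 neural ectoderm markers had reads, and their sum was 477 to 661 CPM in spt_cMO and 432 to 637 CPM in control. Of 14 tested neural markers 1 passed, the progenitor gene *sox2*, which rose to 76.7 CPM ± 7.77 in spt_cMO, against 43.1 CPM ± 4.13 in control (log2 fold change 0.83, adjusted p = 0.000190, edgeR's quasi-likelihood test). Of 17 lateral and intermediate mesoderm, blood and endothelium markers 12 matched a record and 11 had reads, with *drl* at 0, and the sum, mostly *gata2a*, was 567 to 1173 CPM in spt_cMO and 893 to 1689 CPM in control. Without *gata2a* that sum was 264 to 356 CPM in spt_cMO and 265 to 377 CPM in control, with overlapping ranges. Of 7 tested markers of that list 1, *osr1*, fell. The notochord and axial mesoderm sum was 434 to 536 CPM in spt_cMO and 349 to 418 CPM in control, mostly from *tbxta*. Without *tbxta* it was 27.1 to 55.0 CPM in spt_cMO and 22.8 to 49.0 CPM in control, with overlapping ranges. Of 11 listed names 9 matched a record, all with reads. Of 5 tested, 2 rose, *shha* and *tbxta*, the latter being the same call as in the caudal list. The paraxial mesoderm sum also stood apart between the groups, as given above. Of its 19 tested markers 9 were lower in spt_cMO and 1, *fgf8a*, also among the targets above, was higher. Beside the counts of each marker list, 0.974% of all tested records passed as lower and 0.807% as higher. Since lists were chosen with earlier results of these data known, these counts do not measure enrichment either. The part of these cell types in the fall of *meis1b* was not tested. Of 20 epidermis and enveloping layer markers 18 had reads, summing to 586 to 947 CPM in spt_cMO and 418 to 752 CPM in control, and 7 of 8 endoderm markers had reads, summing to 201 to 281 CPM in spt_cMO and 207 to 278 CPM in control. The 8 primordial germ cell markers, all with reads, summed to 30.2 to 83.5 CPM in spt_cMO and 49.8 to 91.9 CPM in control. Of 10 yolk syncytial layer markers 9 had reads and *apoa1b* was at 0, with sums of 8512 to 11870 CPM in spt_cMO and 9462 to 12230 CPM in control, nearly all from *apoeb*. None of the 15 tested epidermal, 6 endoderm, 4 germ cell and 1 yolk syncytial layer markers passed.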

How the data were processed

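The authors deposited raw CEL-seq read counts per RefSeq record for 10 libraries; the series' design text names Zv8 as the assembly and Galaxy scripts as the pipeline, and the aligner, the use of strand and of molecular identifiers are not given in the sources used here. They also deposited an edgeR comparison with log2 fold changes and mean log2 CPM, a likelihood ratio score, and p-values with their adjustment, per the file headers.

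Gene symbols (13986 records matched) were taken from RefSeq's table for GRCz12tu, whose positions were not used. The analysis used edgeR 4.0.16 in R 4.3.3: filterByExpr (minimum count 10, minimum total 15, minimum proportion 0.7), TMM scaling and the robust quasi-likelihood test, 2-sided, with Benjamini-Hochberg adjustment at 0.05 over 6570 records, tested on simulated data. Log2 CPM of single libraries used a prior count of 2. Ratios were compared by exact permutation over 252 assignments (SciPy 1.17.1; smallest p 0.00794).

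After removing group means, the 2 libraries of each number correlated with r of 0.135, 0.251, 0.119, 0.203 and 0.147. Each exceeded 0.1, so differences within numbers are given and a replicate block was fitted as an alternative. These correlations were not compared with those between libraries of different numbers, so they do not show that a number marks a real pair. The main fit and the permutations of ratios used no block and so ignore any pairing. The labels call the replicates biological but give no meaning to a shared number. Alternatives were RLE scaling, no filter, CPM above 2 in 5 libraries, DESeq2 1.42.0, the replicate block and leaving out each library.

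Members and lists were chosen with earlier results of these data known. Named genes were the 8 members, list genes past the threshold or most abundant, and the 5 records most correlated with a called member; the other list genes named were chosen with their values known. The genome of the authors' build was not used here, so no positions or sequences are given.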

Additional observations from a re-analysis of the deposited data

Results flagged for a closer look

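In 3 of the 46 groups of 5 values examined, 1 library lay far from the other 4 (gap to the nearest value above 0.71 of the range), where chance flags about 1 in 20. The total of spt_cMO replicate 1, 9374914 counts, lay above the other 4 spt_cMO libraries, at 2036973 to 3807655. For *meis3*, control replicate 5 lay at 133.6 CPM and the other 4 control libraries at 82.2 to 88.8 CPM. The log2 ratio of *meis1b* to *meis2b* was 3.05 in control replicate 1 and 1.11 to 1.42 in the other 4 control libraries.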

How the results depend on the processing

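Of 473 values recomputed under alternatives, 408 kept their direction and their side of the threshold, or stayed within 1.5 times or the spread between replicates. The fall of *meis1b* held its sign in all 20 alternatives, with an adjusted p of 0.00123 to 0.105 and log2 fold changes of -0.92 to -0.67 with single libraries left out and -0.86 to -0.71 with a block and 1 number left out. Under those omissions *meis3* ranged from -0.58 to -0.26 and, with the block, from -0.62 to -0.31; *meis2b* from -0.14 to 0.26 and from -0.035 to 0.33; *pbx4* from -0.065 to 0.11 and from -0.018 to 0.05 (-0.001 without number 2). Called members lower in spt_cMO numbered 0 to 1 without single libraries and 1 to 2 with the block and 1 number left out, the second being *meis3*. Of all tested records, 45 to 70 passed as lower without single libraries. That count with the block and 1 number left out is not given here. The difference in the log2 ratio of *meis2b* to *pbx2* was 0.003 and ranged from -0.27 to 0.26, and that of *meis2b* to *pbx4* was 0.14 and ranged from -0.19 to 0.41. The summed Pbx difference of 16.2 CPM was -13.5 CPM without spt_cMO replicate 1 and -0.557 CPM without control replicate 5.

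Over all tested records 53 were higher, against 75 with no filter, 88 with the replicate block and 82 with DESeq2, and 36 to 56 without single libraries. Higher hox genes numbered 4, against 10 with no filter, 8 with the block, 8 with DESeq2, and 2 to 6 without single libraries (2 without control replicate 5). The fits with no filter and with DESeq2 did not use the main filter, so their counts are not out of the same 26 hox genes. Higher caudal genes numbered 1, against 0 with no filter and 0 to 2 without single libraries, and DESeq2 called 1 caudal gene lower, *cdx4*. Lower retinoic acid genes numbered 0, against 1 (*aldh1a2*) with the block and with DESeq2, and 0 to 1 without single libraries. Beside these lower calls, all records lower in spt_cMO numbered 64, against 93 with the block, 82 with DESeq2 and 45 to 70 without single libraries. Higher targets and partners numbered 2, against 1 with no filter and 1 to 2 without single libraries. Beside these, the replicate block changed no call of a member or a gene of the 5 lists of regulators and targets. Of the cell type markers, it moved the paraxial counts to 2 higher and 11 lower, against 1 and 9, and left the counts of the other lists as they were. The causes were not tested. With 59 reads in all, *meis2a* was too scarce to be tested.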
